A study of Mus musculus with 4 samples.

Results

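Potassium channel subunit mRNAs were followed in RNA bound by the ribosomal protein RPS2 and in total RNA of cultured mouse cortical neurons. The members were all protein-coding genes whose symbol starts with Kcn, 94 of the 31053 genes counted, a rule that uses no measured value. They comprised 40 voltage-gated pore subunits, 15 inward rectifiers, 14 subunits of the two-pore class, 8 calcium- or sodium-activated subunits and 17 auxiliary genes. The class of calcium- or sodium-activated channels was built on sequence family and so holds Kcnu1, whose channel is gated by pH and voltage, and the auxiliary class holds Kcnrg, a regulator that forms no channel. All libraries came from primary cortical neurons of wild-type mice, taken from late-embryonic C57BL/6J cortex and grown with floxuridine, which limits dividing cells. In enhanced crosslinking and immunoprecipitation (eCLIP), RNA is crosslinked to protein, trimmed with RNase I and recovered with an antibody, here against endogenous RPS2 of the small ribosomal subunit. There were 2 RPS2 IP libraries (replicates 1 and 2) and 2 total RNA libraries (replicates 1 and 2), the latter from material set aside ahead of the IP. The labels give rRNA depletion for the IP libraries and name none for total RNA. The methods of the study place depletion after library preparation without naming the libraries. A difference made by that step cannot be told apart from the IP.

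Potassium channels let potassium leave the cell and thereby set the resting potential, end the action potential and limit repetitive firing. Voltage-gated subunits open on depolarization, inward rectifiers and channels of the two-pore class act near rest, and calcium- or sodium-activated channels follow ion entry. Auxiliary subunits line no pore but change the gating, the assembly or the surface delivery of the pore subunits. Pore subunits share a short selectivity filter that strips water from the ion and passes potassium over sodium.

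The filter is shown here because it is what the pore-forming members have in common and because it shows how a shared pattern is written with different codons. The pattern searched in the translated coding sequences, one transcript a gene, was threonine or serine, then valine, isoleucine or leucine, then glycine, then tyrosine or phenylalanine, then glycine. It was found in 40 of 40 voltage-gated members, 15 of 15 inward rectifiers, 8 of 8 calcium- or sodium-activated members, 12 of 14 members of the two-pore class and 0 of 17 auxiliary members. Of all 21818 coding sequences searched, 158 (0.724%) held it. The lines below give 27 bases of coding sequence, 5′ to 3′, from the GENCODE M21 transcripts, with the 15 bases of the pattern in capitals. The first 3 genes were called higher in the IP, the next 6 were called lower, and the last had the highest level of all members.
Kcna1: atgaccACTGTGGGATACGGTgacatg
Kcna2: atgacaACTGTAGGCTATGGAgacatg
Kcnj10: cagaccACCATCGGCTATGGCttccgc
Kcnh2: ctcaccAGCGTGGGCTTTGGCaatgtc
Kcnh3: ctcaccAGTGTGGGCTTCGGCaacgtg
Kcnj9: gagaccACCATCGGCTATGGGcaccgg
Kcnk12: ttcagcACCATCGGCTTCGGGgacctg
Kcnn1: ttcttgTCCATTGGCTATGGAgacatg
Kcnt1: ttctcaACTGTGGGCTTCGGTgatgtg
Kcnf1: atgaccACAGTGGGCTATGGTgacatc

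On mm10 the capitals lay at chr6:126642228-126642242 for Kcna1 (minus strand, coding part of exon 2 of 2) and at chr3:107105224-107105238 for Kcna2 (plus strand, exon 3 of 3). Those of Kcnj10 and Kcnj9 lay on chromosome 1, at chr1:172369302-172369316 (plus strand, exon 2 of 2) and chr1:172326184-172326198 (minus strand, exon 3 of 4). Kcnh2 held them at chr5:24325555-24325569 (minus strand, exon 7 of 15), and Kcnh3 at chr15:99232929-99232943 (plus strand, exon 8 of 15). The site of Kcnk12 is the second of its 2 filters, at chr17:87746453-87746467 (minus strand, exon 2 of 2). Kcnn1 and Kcnt1 held theirs at chr8:70850657-70850671 (minus strand, exon 4 of 9) and chr2:25894367-25894381 (plus strand, exon 11 of 32). Those of Kcnf1 lay at chr12:17175061-17175075 (minus strand, exon 1 of 1). The sites differed at the wobble position of their codons, and some also differed in the residues encoded, within the choices that the pattern allows. G or C stood at 1 of the 5 wobble positions in Kcna2 and at 2 of 5 in Kcna1, against 4 of 5 in Kcnh2, Kcnh3 and Kcnj9. Kcnk12 had 5 of 5 in the filter shown and 3 of 5 in its first filter. Kcnj10, called higher, also had 4 of 5, while Kcnt1 and Kcnd2, called lower, had 3 of 5 and Kcnn1, called lower, had 2 of 5, so the counts of genes called higher and lower overlapped.

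Library totals ran from 4899718 to 16460545 counts, and between 77 and 84 of the 94 members had at least 1 count in a given library. Levels are given as CPM (counts scaled to a common effective library size) per kb of exonic length, so that genes can be set beside one another. Markers of neurons were high, with a sum over 5 markers between 462 and 540 CPM per kb, and the markers of excitatory and inhibitory neurons were present in every library. The 5 astrocyte markers summed to 322 CPM per kb in IP replicate 1 and 278 in total RNA replicate 1, but to 81.9 and 79.6 in the libraries of replicate 2. The 4 microglia markers summed to 5.04 and 5.57 CPM per kb in replicate 1 and to 0.817 and 0.605 in replicate 2. The 4 endothelial and mural markers summed to 4.23 and 3.85 CPM per kb in replicate 1 and to 1.08 and 1.34 in replicate 2, most of it from the mural marker Pdgfrb, while the endothelial marker Cldn5 had 0 counts in all 4 libraries. The 5 oligodendrocyte lineage markers summed to 6.64 and 6.43 CPM per kb in replicate 1 and to 6.04 and 5.58 in replicate 2. Of these, Mbp was lower in replicate 1 in both kinds of library. Markers of other cell types were thus present beside those of neurons. The sums for astrocytes, microglia and endothelial and mural cells were clearly higher in replicate 1, and that for the oligodendrocyte lineage differed little. In such bulk samples fewer cells of a type and less RNA per cell cannot be told apart.

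Summed over the members, the level was 773 and 606 CPM per kb in the IP libraries of replicates 1 and 2, and 800 and 632 in total RNA. Voltage-gated subunits made up between 49.2% and 51.9% of it in each library, and inward rectifiers between 21% and 22.9%. The two-pore class contributed between 10.9% and 11.5%, auxiliary genes between 9.23% and 11.4%, and calcium- or sodium-activated subunits between 5.36% and 6.41%. The 10 members with the highest mean level held between 44.9% and 51.8% of the sum, so a small group of genes carried much of it in every library.

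Kcnf1, an electrically silent subunit that joins and modifies other voltage-gated subunits, had the highest level per kb of all members. It stood at 64.3 and 78.9 CPM per kb in IP replicates 1 and 2 against 71.5 and 87.2 in total RNA, and its range did not overlap that of any other member but Kcnj4. Kcna6, a pore subunit of the Shaker family, followed among voltage-gated genes with 22.5 and 19.0 CPM per kb in the IP against 21.7 and 18.7 in total RNA. Kcnh5, of the ether-a-go-go family, differed more between replicates than between IP and total RNA, with 28.4 and 12.3 CPM per kb in the IP against 27.4 and 13.4 in total RNA. The means of Kcna6 and Kcnh5 therefore could not be put in an order beyond their spread.

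Kcnj4, a strong inward rectifier of forebrain neurons, had the second highest level. It stood at 59.6 and 66.5 CPM per kb in the IP against 68.4 and 69.9 in total RNA. Kcnj10, the main inward rectifier of astrocytes, stood at 46.4 and 21.4 CPM per kb in the IP against 30.8 and 17.7 in total RNA. Kcnj3, a subunit of the channels that G protein-coupled receptors open in neurons, stood at 33.4 and 19.1 CPM per kb in the IP against 27.5 and 17.1 in total RNA. Both Kcnj10 and Kcnj3 were higher in both libraries of replicate 1 than in those of replicate 2, and their ranges overlapped each other.

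Kcnk1, a weakly conducting background channel subunit, led the two-pore class with 44.2 and 32.5 CPM per kb in the IP against 38.1 and 31.3 in total RNA. Kcnk12, a silent member of that class, had 19.8 and 13.6 CPM per kb in the IP against 28.9 and 19.4 in total RNA. Kcnk2, a mechanically and lipid-sensitive background channel, was lower and even across libraries, between 5.08 and 6.29 CPM per kb. Kcnma1, the pore of the large-conductance calcium-activated channel, led its class and was the most even of the members named here, with 19.2 and 18.3 CPM per kb in the IP against 18.9 and 18 in total RNA. Among auxiliary genes Kcnab2, a cytoplasmic beta subunit of Shaker-family channels, had 28.7 and 29.97 CPM per kb in the IP against 27.5 and 32.2 in total RNA. Kcnip3, a calcium sensor that binds A-type channels, lay between 9.22 and 12 CPM per kb, and Kcnip2, of the same family, had 12.8 and 13.8 in the IP and total RNA of replicate 1 against 6.60 and 6.47 in replicate 2.

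**Figure D1:**
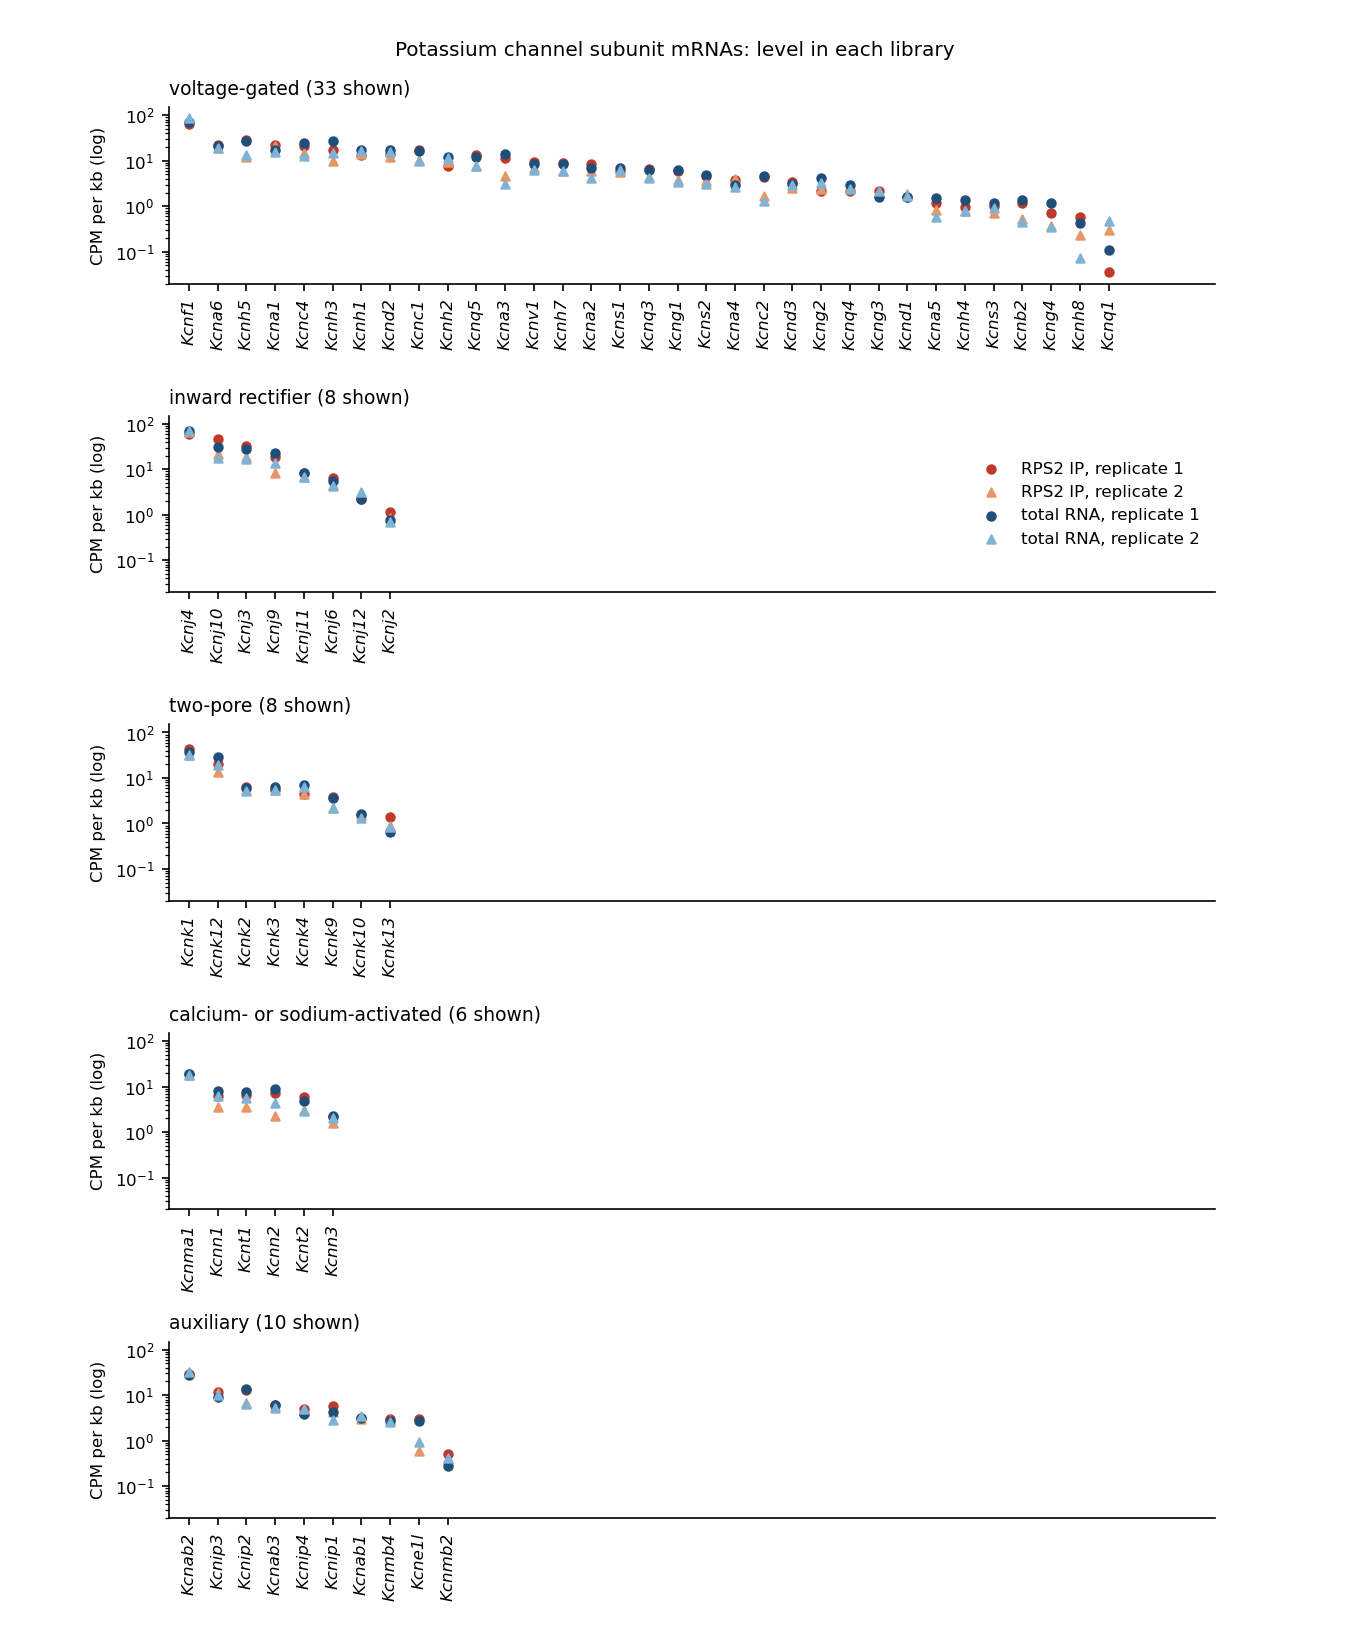
Level of 65 of the 68 members that passed the filter on low counts, in CPM per kb of exon on a log axis, by class and ordered by mean level. Red and orange marks are the IP libraries, dark and light blue marks total RNA, circles replicate 1 and triangles replicate 2. Kcnf1 and Kcnj4 stand above all other members in the 4 libraries, and circles lie above triangles for most genes.

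The filter on low counts kept 68 of the 94 members: 36 voltage-gated, 8 inward rectifier, 8 of the two-pore class, 6 calcium- or sodium-activated and 10 auxiliary. Of the 26 members left out, 6 had 0 counts in all 4 libraries, namely Kcnj1, Kcnj13, Kcnj15, Kcnk16, Kcnk18 and Kcnmb3. Kcnj1 is known for salt transport in the kidney and Kcnk16 for the pancreas. A count of 0 allows up to 3 counts, or 0.216 CPM in IP replicate 1 and 0.667 CPM in total RNA replicate 1, the most and the least sensitive libraries, and this limit covers counting error only. The other 20 had between 1 and 32 counts over the 4 libraries together, with the most in Kcnj16. These 6 and 20 members, named here after their values were seen, carry no statement on IP over total RNA.

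The members differed more between the replicates than between IP and total RNA. In a comparison of replicate 1 with replicate 2, made apart for the IP and for total RNA with 1 library a side and therefore without a test, the members had a median log2 difference of 0.44 in the IP and 0.36 in total RNA, against 0.0021 and 0.014 over all 12336 genes tested. Of the 68 members, 50 (73.5%) were higher in replicate 1 in both the IP and total RNA, where 38.4% of all genes were. This held for 27 of 36 voltage-gated, 6 of 8 inward rectifier, 6 of 8 of the two-pore class, 6 of 6 calcium- or sodium-activated and 5 of 10 auxiliary members. The IP and total RNA of a replicate share their source, so the agreement between them is no independent support.

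Over 2-fold higher in replicate 1 in both the IP and total RNA were 7 members (10.3%), against 5.46% of all genes. These were Kcna3, Kcnb2, Kcnc2, Kcnh5, Kcnh8, Kcnn2 and Kcne1l, most of them named because of these values. Kcna3, a Shaker-family channel known from lymphocytes and microglia as well as from neurons, had 11.3 and 14.1 CPM per kb in the IP and total RNA of replicate 1 against 4.57 and 3.11 in replicate 2. Kcnc2, a fast delayed rectifier of interneurons, had 4.51 and 4.52 CPM per kb in replicate 1 against 1.71 and 1.33. In the other direction 1 member was over 2-fold higher in replicate 2 in both kinds of library, against 1.54% of all genes. This was Kcnq1, best known from heart and epithelia, at 2 and 2 counts in replicate 1 against 14 and 12 in replicate 2.

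All 5 astrocyte markers were higher in replicate 1 in both kinds of library, with a summed level 3.94-fold higher in the IP and 3.5-fold in total RNA. Of the 4 microglia markers, Cx3cr1 and Csf1r were higher too. Aif1 and P2ry12 had at most 4 counts in any library, did not pass the filter on low counts and carry no statement. The endothelial and mural markers summed to 3.93-fold in the IP and 2.86-fold in total RNA, with Pdgfrb alone of the 4 higher in replicate 1 in both. The 5 neuronal markers summed to 1.02-fold in the IP and 0.855-fold in total RNA, but they did not move together. Rbfox3 (log2 0.70 in the IP and 0.45 in total RNA) and Syt1 (0.48 and 0.14) were higher in replicate 1. Tubb3 (-0.15 and -0.33) and Snap25 (-0.40 and -0.70) were lower. Map2 was mixed, at 0.10 and -0.37. The part of these cell types in the higher member levels of replicate 1 was not tested. Lower in replicate 1 in both kinds of library were 6 members, Kcnf1, Kcnj4, Kcnab2, Kcnj12, Kcnd1 and Kcnq1. Of these Kcnf1, Kcnj4 and Kcnab2 were highly expressed, with log2 differences of -0.30, -0.16 and -0.063 in the IP, and of -0.28, -0.030 and -0.23 for total RNA.

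**Figure D2:**
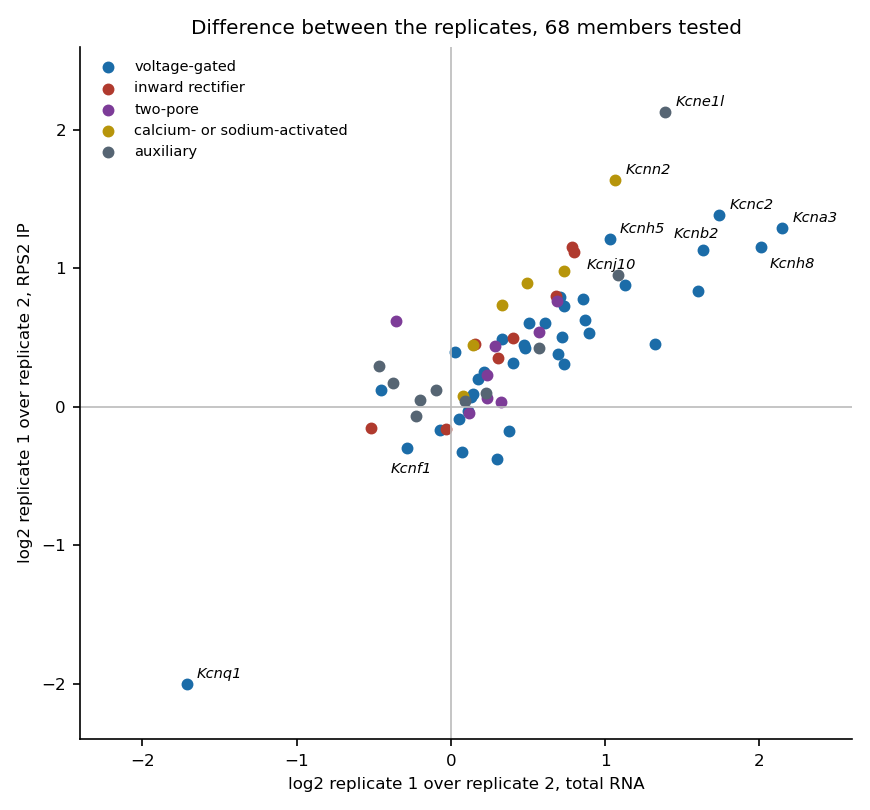
Log2 of replicate 1 over replicate 2 for each of the 68 members, in total RNA on the horizontal axis and in the RPS2 IP on the vertical axis, coloured by class. Most points (50 of 68) lie at the upper right, higher in replicate 1 in both. At the lower left lie 6, of which Kcnq1 is the farthest from 0.

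In the study these libraries served as a benchmark of ribosome occupancy, and the measure taken from them was the ratio of IP to total RNA. With the libraries treated as unpaired, edgeR called 0 of 68 members in either direction, and 0 of 12336 genes (0%) in all. At an unadjusted p under 0.05 there were 0 members and 349 genes, and DESeq2 without pairing called 0 members and 5 genes, all lower. The median log2 IP over total RNA of the members was -0.0018, against 0.0097 over all genes tested, so the channel mRNAs as a group sat with the other mRNAs. Within replicate 1 the member median was 0.0090 (all genes 0.012) and within replicate 2 it was 0.0049 (all genes 0.0075).

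With the replicate number as a block, which removes the difference between the replicates, 12 members were called at an adjusted p under 0.05. There were 4 higher in the IP, or 5.88% of the members tested against a background of 6.63% of all genes, and 8 lower, or 11.8% against 7.55%. In either direction 17.6% of the members were called, against 14.2% of all genes, a share near the background. No member differed by more than 2-fold, and the median size of the log2 difference was 0.14 for members and 0.23 for all genes. Under scaling by total counts the block left 0 members higher and 9 lower, where higher calls fell to 2.29% of all genes and lower calls stood at 7.12%. Pair ratios had the same sign in 46 of 68 members (67.6%), as in 66.5% of all genes. Both IP libraries lay above both total RNA libraries in 6 members (8.82%, background 16.9%) and below both in 8 (11.8%, background 14.9%).

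**Figure D3:**
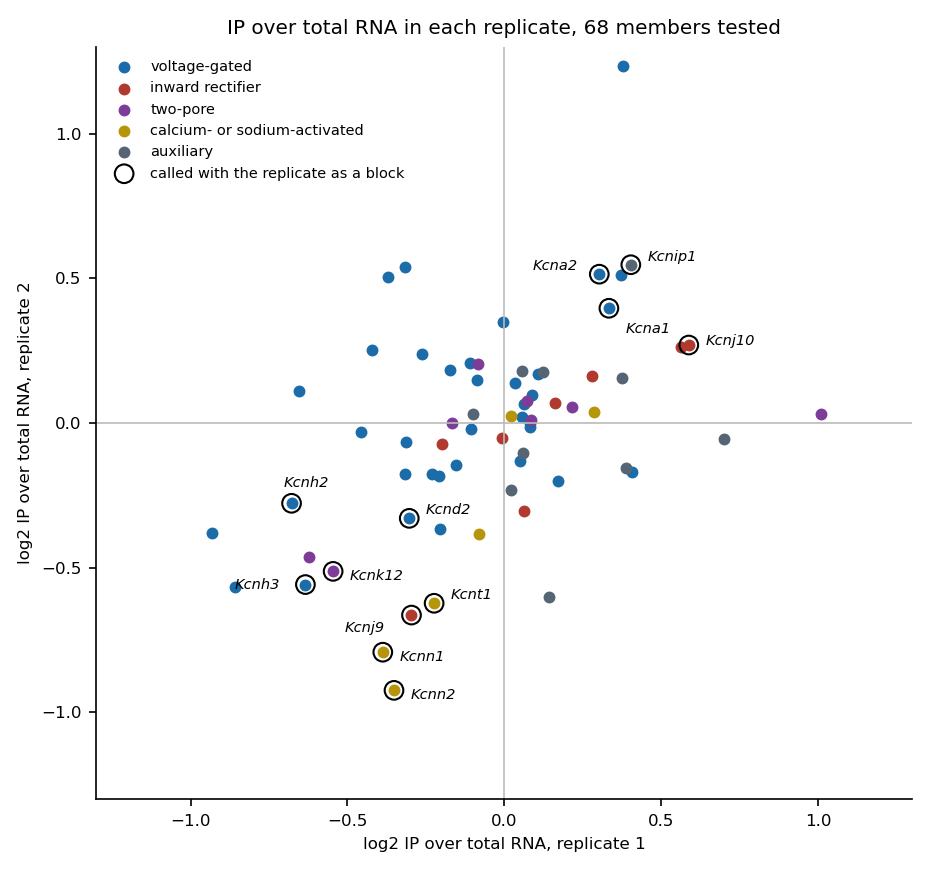
Log2 IP over total RNA of each of the 68 members within replicate 1 (horizontal axis) and within replicate 2 (vertical axis), coloured by class, with rings around the 12 members called in the blocked fit. The ringed genes lie in the upper right (4, higher in the IP) or the lower left (8, lower in the IP), and the other members scatter around 0.

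Higher in the IP were a pair of Shaker-family pore subunits, an astrocytic inward rectifier and a calcium sensor of the A-type channel. Kcna1 (ENSMUSG00000047976), which forms low-threshold channels of axons and their terminals, had 21.9 and 20.9 CPM per kb in IP replicates 1 and 2 against 17.4 and 15.9 in total RNA. Both IP libraries lay above both total RNA libraries, and the blocked log2 difference was 0.37 ± 0.11 (SE, 2 libraries a group, edgeR adjusted p = 0.00971). Kcna2 (ENSMUSG00000040724), its usual partner in axonal channels, had 8.67 and 6.09 CPM per kb in the IP against 7.02 and 4.26 in total RNA. Its groups overlapped, while the IP was the higher library within each replicate (0.41 ± 0.11, adjusted p = 0.00456).

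Kcnj10 (ENSMUSG00000044708) had 46.4 and 21.4 CPM per kb in the IP against 30.8 and 17.7 in total RNA, a blocked log2 difference of 0.44 ± 0.10 (adjusted p = 0.000622). The groups overlapped, because replicate 2 of the IP lay below replicate 1 of total RNA. Among the 5 astrocyte markers Aqp4 and Slc1a3 were called higher in the same fit, at 0.49 and 0.34, and the other 3 were not called, and their summed level was 1.16-fold that of total RNA in replicate 1 and 1.03-fold in replicate 2. The part of astrocytes in the value of Kcnj10 was not tested. Kcnip1 (ENSMUSG00000053519), which binds A-type channels, had 5.66 and 4.19 CPM per kb in the IP against 4.27 and 2.86 in total RNA (0.48 ± 0.15, adjusted p = 0.0193). Each of these 4 calls was lost with scaling by library totals alone, and of the 4 Kcnj10 alone was called in the blocked DESeq2 fit, which gave Kcnip1 no adjusted p.

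Lower in the IP were 3 of the 6 calcium- or sodium-activated members tested, 3 voltage-gated subunits, 1 G protein-gated inward rectifier and 1 member of the two-pore class. Kcnh3 (ENSMUSG00000037579), a subthreshold channel of forebrain neurons, had 17.1 and 9.94 CPM per kb in the IP against 26.6 and 14.7 in total RNA. The blocked log2 difference was -0.60 ± 0.11 (adjusted p = 2.39e-06), the smallest p among the members, with ratios of -0.63 and -0.56 within replicates 1 and 2. Kcnh2 (ENSMUSG00000038319), whose channel is best known for repolarizing the heart and also damps neuronal firing, had 7.64 and 9.61 CPM per kb in the IP against 12.3 and 11.7 in total RNA. Both IP libraries of Kcnh2 lay below both total RNA libraries (-0.47 ± 0.12, adjusted p = 0.00175). Kcnd2 (ENSMUSG00000060882), the main A-type pore of dendrites, had 14.1 and 12.2 CPM per kb against 17.4 and 15.4, also without overlap (-0.32 ± 0.11, adjusted p = 0.0352).

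Kcnn1 (ENSMUSG00000002908) and Kcnn2 (ENSMUSG00000054477) encode small-conductance calcium-activated channels that shape the pause after a spike. Kcnn1 had 6.10 and 3.64 CPM per kb in the IP against 8.0 and 6.33 in total RNA, with both IP libraries below both of total RNA (-0.58 ± 0.15, adjusted p = 0.00186). Kcnn2 had 7.09 and 2.25 CPM per kb in the IP against 9.05 and 4.30 in total RNA (-0.60 ± 0.13, adjusted p = 0.000191). Its groups overlapped, with the IP the lower library in each replicate. Kcnt1 (ENSMUSG00000058740), a sodium-activated channel, had 6.63 and 3.56 CPM per kb in the IP against 7.75 and 5.49 (-0.41 ± 0.12, adjusted p = 0.0065).

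Kcnj9 (ENSMUSG00000038026), a subunit of G protein-gated channels, had 19.1 and 8.53 CPM per kb in the IP against 23.4 and 13.5 in total RNA (-0.47 ± 0.11, adjusted p = 0.000969). Kcnk12 (ENSMUSG00000050138) was given above, and its blocked log2 difference was -0.53 ± 0.13 (adjusted p = 0.00105), with ratios of -0.55 and -0.51 within the replicates. The ratios within replicates 1 and 2 lay further apart for Kcnn2 (-0.35 and -0.92), Kcnn1 (-0.39 and -0.79) and Kcnt1 (-0.22 and -0.62). The same held for Kcnj9 (-0.30 and -0.66) and Kcnh2 (-0.68 and -0.28), while Kcnd2 was even (-0.30 and -0.33). The standard errors lean on a dispersion trend shared by all genes, so they need not show that gap. Groups overlapped for Kcnj9, Kcnk12, Kcnt1, Kcnn2 and Kcnh3. All 8 calls rest on the pairing of the libraries, since the unpaired fit called none of them, and the same is true of the 4 higher calls. The 8 held with scaling by total counts. The blocked DESeq2 fit called 2 of the 8, Kcnh3 and Kcnn2, where 8.16% of all genes it gave an adjusted p were lower and 3.37% higher.

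**Figure D4:**
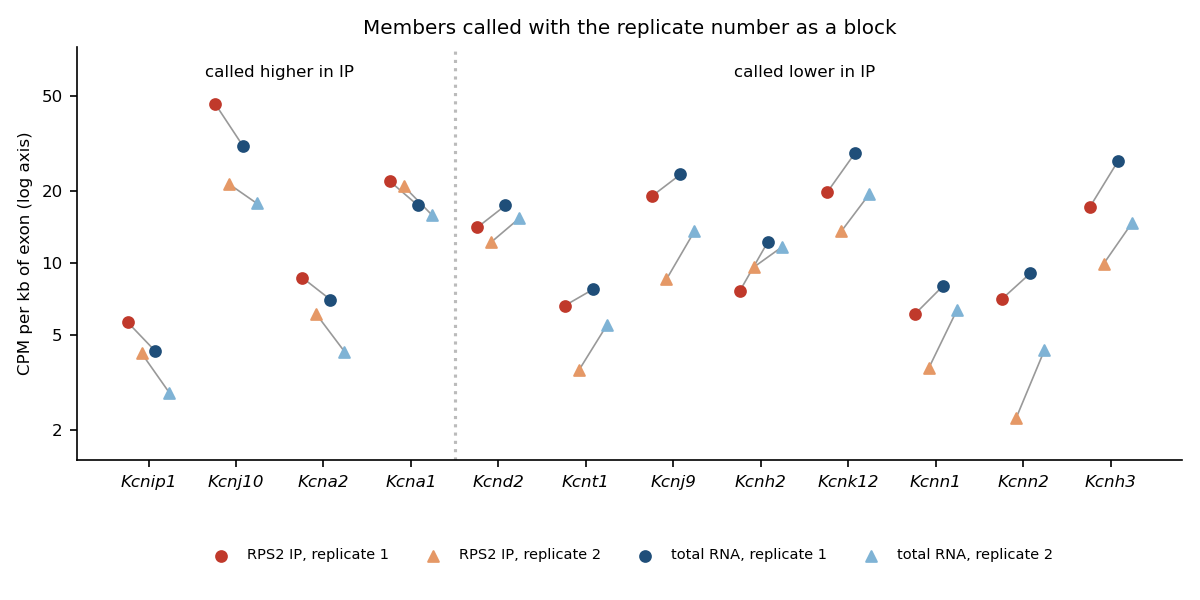
Level of the 12 members called in the blocked fit, in CPM per kb of exon on a log axis, with a grey line from each IP library (red, orange) to the total RNA library of the same replicate (dark and light blue). Circles are replicate 1 and triangles replicate 2. Lines fall from IP to total RNA for the 4 genes called higher and rise for the 8 called lower, and the step within a replicate is often smaller than the gap between replicates.

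Subunits that assemble in one channel were set side by side. Of the G protein-gated subunits tested, Kcnj3 and Kcnj6, which assemble with Kcnj9, had blocked log2 differences of 0.22 ± 0.10 (adjusted p = 0.146) and 0.12 ± 0.13 (adjusted p = 0.624), and the difference of either from Kcnj9 was not tested. Of the subunits of the A-type channel, the pore gene Kcnd2 was called lower in the IP and its sensor Kcnip1 higher. Kcnd2 was called in 5 of 7 blocked fits, not with DESeq2 or with no filter on low counts. Kcnip1 was called in 4 of the 7, and the difference between the 2 genes was not tested. The other pore genes of the Kcnd family, Kcnd1 and Kcnd3, stood at 0.091 and -0.017 and were not called. Kcnip2, Kcnip3 and Kcnip4 stood at -0.043, 0.26 and 0.099 and passed no test. Kcnq3, a subunit of the channel whose M current brakes repetitive firing, stood at 0.065 ± 0.11 (adjusted p = 0.77).

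Other subunits known for major neuronal currents were not called. Kcnc1, which lets fast-spiking neurons fire at high rates, had 17.5 and 10.6 CPM per kb against 16.5 and 9.89 (0.093 ± 0.11, adjusted p = 0.629). Kcnma1 differed by 0.023 ± 0.098 (adjusted p = 0.92), Kcnk1 by 0.14 ± 0.11 (adjusted p = 0.467), Kcnk2 by 0.074 ± 0.15 (adjusted p = 0.812) and Kcnh7 by 0.036 ± 0.11 (adjusted p = 0.879). Among the members with the highest levels, Kcnf1 and Kcnj4 stood at -0.15 ± 0.098 and -0.13 ± 0.10 (adjusted p = 0.344 and 0.437), and Kcna6, Kcnh5 and Kcnab2 at 0.039, -0.032 and -0.024.

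By class, the calcium- or sodium-activated members had a median blocked log2 difference of -0.32, with 3 of 6 called lower and 0 called higher, where 7.55% of all genes were called lower and 6.63% higher. Once GC and length were offset (a fit described further on), the median of this class was -0.14 and Kcnn2 alone of the 6 was called. The auxiliary members had a median of 0.11 with 1 of 10 called, higher. Voltage-gated subunits had a median of -0.011, with 2 of 36 called higher and 3 lower, inward rectifiers 0.044 with 1 of 8 called each way, and the two-pore class 0.057 with 1 of 8 called, lower. Classes are small, their differences from each other were not tested, and Kcnn1 and Kcnn2 belong to the same family.

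Members with GC-rich transcripts tended to have the lower ratio. GC content, computed over the annotated transcripts, had a median of 53.4% in the members tested and 50.5% in all genes tested. It ranged from 39.3% in Kcnt2 to 69.4% in Kcnk12. Across the 68 members Spearman's rho of the blocked log2 difference with GC content was -0.54, and across 12328 genes it was -0.32. Within replicate 1 it was -0.57 and within replicate 2 it was -0.31 for the members. These are descriptions across genes, which share the 4 libraries and are not independent replicates. The 23 members of lowest GC content had a median of 0.065 with 2 called higher and 1 lower, and the next 23 a median of 0.039 with 2 called each way. The 22 of highest GC content, from 56.5% upwards, had a median of -0.14 with 0 called higher and 5 lower. Over all genes tested, 6.63% were called higher and 7.55% lower. The shares among all genes of like GC content were not computed, so these counts are not shown to be particular to the channels. The 8 members called lower had a median GC content of 58.4%, and the 4 called higher 49.2%.

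An offset for GC content and exonic length in the blocked fit changed which members were called. It left 5 higher, among them Kcna1, Kcna2, Kcnj10 and Kcnc1, against a background of 3.98% of all genes, and 2 lower (Kcnd2 and Kcnn2), against 2.5%. Kcnk12 moved from -0.53 to -0.090 and Kcnh2 from -0.47 to -0.12, and the calls of Kcnh3 (-0.31), Kcnn1 (-0.37), Kcnj9 (-0.24), Kcnt1 (-0.096) and Kcnip1 (0.44) were lost as well. Kcnd2, with 44.4% GC the least GC-rich of the 8 lower genes, became lower still, at -0.49 (adjusted p = 0.000921). Kcnc1, at 56.5% GC, rose to 0.41 (adjusted p = 0.00485). Coding length had a rho of -0.28 with the blocked difference in the members and -0.43 in all genes with a coding sequence.

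**Figure D5:**
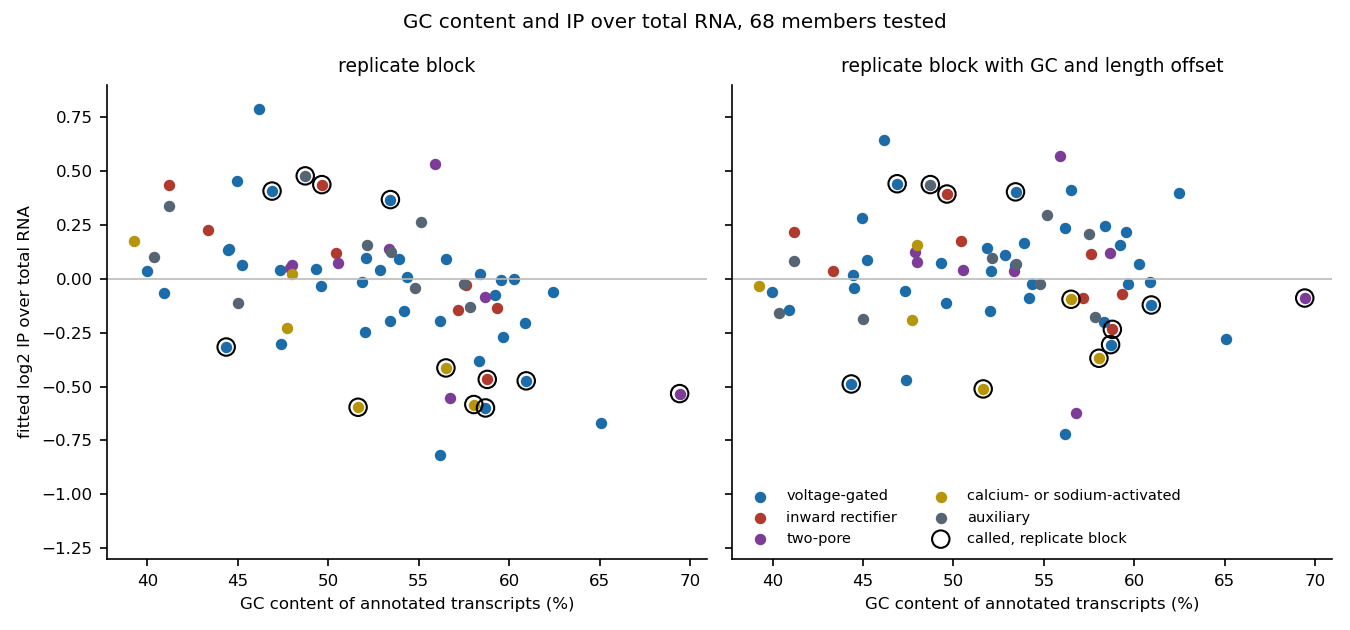
Fitted log2 IP over total RNA of the 68 members against the GC content of their annotated transcripts in percent, from the blocked fit (left) and from the blocked fit with an offset for GC content and exonic length (right), coloured by class, with rings around the 12 members called on the left. The left panel slopes down (rho = -0.54) and the right does not (rho = -0.055), and 6 of the ringed genes below 0 lie at over 56% GC. The offset takes out each library's trend with GC content and length over all genes, so a flatter right panel is built into that fit.

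Genes outside the family that work with these channels were read from a list of 32: related cation channels (Hcn), A-type and large-conductance channel partners (Dpp6, Dpp10, Lrrc family), scaffolds (Dlg, Ank), sulfonylurea receptors, calmodulin and G protein regulators. The filter kept 29. With the block, 3 of these 29 were higher and 3 lower, where 6.63% of all genes were called higher and 7.55% lower. The median log2 difference of the partners was 0.063, against 0.011 over all genes tested. Among the higher genes were Calm2 and Calm3, which encode calmodulin, the calcium sensor of Kcnn channels and a subunit of Kcnq channels. Calm3 had 299 and 344 CPM per kb in the IP against 195 and 225 in total RNA (0.61 ± 0.10, adjusted p = 1.1e-07), and Calm2 stood at 0.32 (adjusted p = 0.0171). Both genes had both IP libraries above both total RNA libraries, which is opposite in direction to Kcnn1 and Kcnn2. The ratios within replicates 1 and 2 were 0.62 and 0.61 for Calm3, but 0.60 and 0.058 for Calm2.

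Among the lower genes were Hcn2 and Hcn4, pores of the hyperpolarization-activated current. Hcn2 had 26.5 and 26.4 CPM per kb in the IP against 44.6 and 36.9 in total RNA (-0.62 ± 0.11, adjusted p = 6.23e-07). Hcn4 stood at -0.45 (adjusted p = 0.00164), and IP and total RNA did not overlap for either gene. Under the GC and length offset, Calm3 kept its call, and Calm2, Hcn2 and Hcn4 lost theirs. Calm2 was also not called in the blocked fits with library size only, with DESeq2 and after thinning. Hcn4 was not called in the blocked DESeq2 fit.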

How the data were processed

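RPS2 eCLIP and total RNA libraries of primary cortical neurons were compared, 2 a group, with groups and replicate numbers from the labels. The deposited files hold raw counts per gene and exonic length, which the authors made with featureCounts 1.5.3 per the file headers, stranded, on mm10 (annotation package version 3.0.0), after adapter trimming and end-to-end STAR alignment. Reads at several loci or in several genes were not counted, and no removal of PCR duplicates was named.

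Identifiers were matched to GENCODE M21 (30934 of 31053; all 94 members). The members follow from gene symbols and biotype alone, but the family and the lists were picked for study with earlier results of these data known. Counts were tested in R 4.3.3 with edgeR 4.0.16 (filterByExpr, TMM, quasi-likelihood F test, two-sided, Benjamini-Hochberg over 12336 genes, threshold 0.05). Blocked values have the replicate number as a block: total RNA came from the samples used for the IP, and deviations from group means correlated at 0.733 between same-numbered libraries. That fit has 1 residual degree of freedom and infinite prior degrees of freedom, so its p-values lean on the dispersion trend shared by all genes. No source states that the replicates were separate cultures, so the spread behind any p-value is that between these libraries, which may be technical. Blocked p-values take that spread mostly from the trend over all genes, not from the gap between a gene's own pairs. Pair ratios are differences of log2 CPM with a prior count of 2. Values ± are standard errors of the fit. Named genes were the 3 highest members of each class per kb, the members and listed partners called in either fit, and a list of well-known neuronal subunits. Others were chosen after their values were seen. A few genes and 1 coding sequence are left unreported. DESeq2 1.42.0, other scalings and filters, thinning to equal depth, GC and length offsets (loess, span 0.3) and leaving out each library were alternatives. Sequence patterns were read with Python 3.11.15.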

Additional observations from a re-analysis of the deposited data

How the results depend on the processing

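With no pairing, 0 members and 0 listed partners were called under any scaling, filter or tool, and all genes lower numbered 5 with DESeq2 and 14 with no filter on low counts. Under the replicate block the calls were 818 and 931 among all genes, 4 and 8 among members and 3 and 3 among partners, higher and lower in turn. Blocked, the counts of genes higher and lower, members higher and lower, and partners higher and lower were, in that order, 283, 878, 0, 9, 1 and 3 with library size only, 158, 382, 1, 2, 2 and 1 with DESeq2, 769, 699, 4, 7, 3 and 3 with no filter on low counts, 878, 926, 4, 8, 4 and 3 with at least 10 counts in every library, 491, 309, 5, 2, 2 and 0 under the offset for GC and length, and 588, 759, 4, 7, 2 and 2 after thinning. DESeq2 gave no adjusted p to 30 of the members in the blocked fit. The member median was -0.0018 and moved to -0.019 with median-ratio scaling, -0.087 with library size only, -0.022 with DESeq2 and 0.043 with no filter. Blocked, it was -0.073 with library size only, -0.0059 with DESeq2, 0.026 with no filter, 0.0036 with at least 10 counts, 0.037 with the GC and length offset and -0.0053 after thinning. The median over all genes moved with it under library size only, to -0.084 without the block and -0.073 with it. The pair medians became -0.0076 and -0.14 with library size only. Leaving out 1 library at a time, unpaired, gave 0 members, 0 partners and between 1 and 8 genes lower, with a member median between -0.23 (IP replicate 1 dropped) and 0.20 (total RNA replicate 1 dropped), the libraries left then differing in replicate. Kcnj10 changed sign when IP replicate 1 was dropped (-0.19), Kcnj9 when IP replicate 2 (0.043) or total RNA replicate 1 (0.027) was, and Kcnn2 with the same libraries dropped (0.086 and 0.12), with 0 of these called. Where no cause is given, the cause was not tested. Depth limits the genes with few counts, and 2 libraries a group limit every unpaired test.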

Other observations

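The tables also count 5 antisense transcripts named after potassium channel genes, which are not subunits. Kcnq1ot1, the long antisense transcript of the imprinted Kcnq1 locus, was the only one of the 5 to pass the filter on low counts. It had 493 and 123 counts in IP replicates 1 and 2 against 125 and 40 in total RNA, in libraries of unequal depth. Per kb its level was 0.382 and 0.118 CPM for the IP against 0.299 and 0.0705 for total RNA, with a blocked log2 difference of 0.49 ± 0.18 (edgeR adjusted p = 0.0434) and an unpaired fit that called no gene, while Kcnq1 itself had between 2 and 14 counts. Kcnq1ot1 was higher in replicate 1 in both kinds of library, and Kcnq1 was higher in replicate 2. Of the other 4, Kcnmb4os2 had 13 and 12 counts in the IP against 11 and 2 in total RNA, Kcnd3os and Kcnmb4os1 had at most 1 count in any library, and Kcnab3os had 0 in all 4. These genes were named after their values were seen.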
